A study of Rattus norvegicus with 32 samples.

Results

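Interleukin-1 (IL-1) and tumor necrosis factor (TNF) genes were followed in liver sinusoidal endothelial cells (LSECs) of the rat during carbon tetrachloride (CCl4) injury. The 10 genes were taken by their symbols from the 32623 genes of each library. They are the cytokines Il1a, Il1b, Il18, Il33 and Tnf, the antagonist Il1rn, and the receptor genes Il1r1, Il1rap, Il1rl1 and Tnfrsf1a. Symbols were chosen for their function, with earlier results of these data known, and all 10 passed the filter on low counts in each of the 7 comparisons.

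RNA sequencing covered 32 libraries of LSECs, which line the hepatic sinusoids and were separated from digested liver on an iodixanol gradient without sorting. The CCl4 model used male Wistar Han rats, with 6 untreated (healthy) libraries, 5 libraries after 2 weeks of inhaled CCl4 (acute injury), 5 after 6 weeks (fibrosis) and 6 from rats with cirrhosis after 12 to 14 weeks. In the thioacetamide (TAA) experiment, 5 libraries were labelled control and 5 were labelled TAA control. The labels give Wistar Han for these rats and the study's design gives Sprague-Dawley, and the labels do not settle which group received TAA, so values of the TAA control group are given relative to the control group without naming a diseased side. Per the study's methods, rats of the CCl4 model also received phenobarbital in their water, and whether the untreated rats did is not given in the sources used here. No age is given, the duration of the cirrhotic group comes from the study's design, and the rats of the toxicant groups were left for some days without toxicant before their cells were taken, per the study's methods. The study describes its samples as independent LSEC isolations, while the labels do not say whether libraries of a group came from separate rats, so p-values measure the spread between these libraries.

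IL-1 alpha and IL-1 beta bind the receptor IL-1R1, which signals together with the accessory protein encoded by Il1rap, and the antagonist encoded by Il1rn occupies the same receptor without signaling. IL-33 uses the receptor ST2, encoded by Il1rl1, with the same accessory protein, IL-18 has receptors of its own, and TNF acts through the receptor encoded by Tnfrsf1a. In the liver, Kupffer cells and other macrophages are well known sources of IL-1 beta, IL-18 and TNF, and endothelial cells answer IL-1 and TNF with adhesion molecules and chemokines.

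Promoters of Il1a, Il1b, Il18 and Tnf are shown because these 4 cytokine genes were higher in cirrhosis than after acute injury. Each is the RefSeq sequence (assembly GRCr8) from 200 bases before to 20 bases after the annotated start, read 5′ to 3′ on the strand of the gene, with AP-1 sites (TGANTCA, the same on both strands) in capitals.
Il1a, chr3:136989998-136990217, minus strand: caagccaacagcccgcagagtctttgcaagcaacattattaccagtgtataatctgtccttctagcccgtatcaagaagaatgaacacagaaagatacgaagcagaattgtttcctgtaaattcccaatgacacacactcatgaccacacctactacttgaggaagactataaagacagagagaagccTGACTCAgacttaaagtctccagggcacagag
Il1b, chr3:137036562-137036781, minus strand: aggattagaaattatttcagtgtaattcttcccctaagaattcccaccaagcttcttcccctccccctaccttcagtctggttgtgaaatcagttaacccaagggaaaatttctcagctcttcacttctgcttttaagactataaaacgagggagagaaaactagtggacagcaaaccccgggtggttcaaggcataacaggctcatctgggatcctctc
Il18, chr8:59801872-59802091, plus strand: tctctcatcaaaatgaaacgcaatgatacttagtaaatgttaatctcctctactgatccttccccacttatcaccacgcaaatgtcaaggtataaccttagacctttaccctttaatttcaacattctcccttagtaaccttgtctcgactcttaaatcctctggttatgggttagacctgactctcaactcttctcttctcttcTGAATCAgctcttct
Tnf, chr20:3626485-3626704, plus strand: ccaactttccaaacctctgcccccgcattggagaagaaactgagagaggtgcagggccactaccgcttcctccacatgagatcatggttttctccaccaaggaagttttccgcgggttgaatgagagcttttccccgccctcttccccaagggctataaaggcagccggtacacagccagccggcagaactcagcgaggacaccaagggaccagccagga
All 10 genes were matched to RefSeq promoters of 300 bases, 250 before and 50 after the start. The Il1a promoter held an AP-1 site that begins 12 bases before the start, and the Il18 promoter held one within the first 20 bases after it. Of 33469 promoters of the same length, 7.33% held an AP-1 site. The NF-kappaB motif, searched on both strands, was found in the promoters of Il1r1 and Il1rap and in 4.18% of all promoters. Neither motif was in these windows of Il1b, Il1rn, Il33, Il1rl1, Tnf or Tnfrsf1a, which says only that these letters are not in them.

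The sum of expected counts was 25646531 to 46464289 per library. LSEC and endothelial markers (14 genes) summed to 21147 to 38568 counts per 1000000 scaled reads (CPM) in healthy libraries, 4545 to 5430 after acute injury, 3183 to 4361 in fibrosis and 19156 to 24621 in cirrhosis, and each of the 14 was above 1 CPM in every library. Macrophage and Kupffer cell markers (15 genes) summed to 758 to 4889 CPM in healthy libraries, 153 to 313 after acute injury, 68.9 to 341 in fibrosis and 1460 to 4073 in cirrhosis. Of these 15 genes, Timd4 was at 0 in all libraries of acute injury and fibrosis, while Clec4f, a Kupffer cell lectin, ranged from 45.9 to 1163 CPM in healthy libraries and from 5.56 to 25.1 CPM after acute injury. In every healthy library 1 of these 15 genes was also below 1 CPM. Dissociation and immediate early genes (15 genes, Fos and Jun among them) summed to 50097 to 84169 CPM in healthy libraries, 1522 to 5263 after acute injury, 4500 to 7135 in fibrosis and 26639 to 50182 in cirrhosis. All 3 lists stood low after acute injury and in fibrosis. Lymphocyte markers (12 genes) and hepatocyte markers (12 genes) were also low after acute injury, with 8 of 9 and 12 of 12 tested called lower. Of all genes, 37.9% were called lower after acute injury and 27.1% higher in cirrhosis. Stellate cell and fibroblast markers (12 genes) were called lower for 7 of 11 after acute injury and higher for 9 of 12 in cirrhosis (median log2 fold-change 2.28), although their sum, 296 to 797 CPM in healthy libraries, was 1316 to 2133 CPM after acute injury and 643 to 1974 CPM in cirrhosis. After acute injury Reln alone gave 1305 to 2123 CPM of the stellate sum. Neutrophil markers summed to at most 48.4 CPM and cholangiocyte markers to at most 146 CPM in any library, and in cirrhosis 5 of 6 neutrophil markers (median log2 fold-change 2.26) and 3 of 8 cholangiocyte markers tested were called higher than healthy. In each cirrhotic library 5 to 8 of the 10 neutrophil markers were below 1 CPM. Their sum in cirrhosis, 10.3 to 26.5 CPM, lay inside the healthy range of 5.04 to 48.4 CPM. In bulk RNA, fewer cells of a type and less RNA per cell cannot be told apart.

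In LSECs of acute injury, 8 of the 10 genes differed from healthy LSECs (5 higher, 3 lower). A call needed more than a 1.5-fold change together with an adjusted p-value (limma-voom, Benjamini-Hochberg) that stayed under 0.05. Of all 14317 genes tested, 73.4% were called by the same rule, 35.5% higher and 37.9% lower. In fibrosis 7 were called (4 higher, 3 lower) beside 70.2% of all genes (35.3% higher, 34.9% lower). Cirrhosis gave 6 calls (5 higher, 1 lower) beside 51.8% of all genes (27.1% higher, 24.7% lower). Libraries did not overlap for 4 of the 10 genes in each of these comparisons, beside 60% of all genes after acute injury, 58.7% in fibrosis and 27.2% in cirrhosis. The share of the 10 genes called was near that of all genes at each stage, and both directions were found among them. The median log2 fold-change of the 10 genes was 0.16, -0.17 and 0.63 at the 3 stages, and that of all genes was -0.09, -0.03 and 0.07. These 3 comparisons share the 6 healthy libraries.

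**Figure D1:**
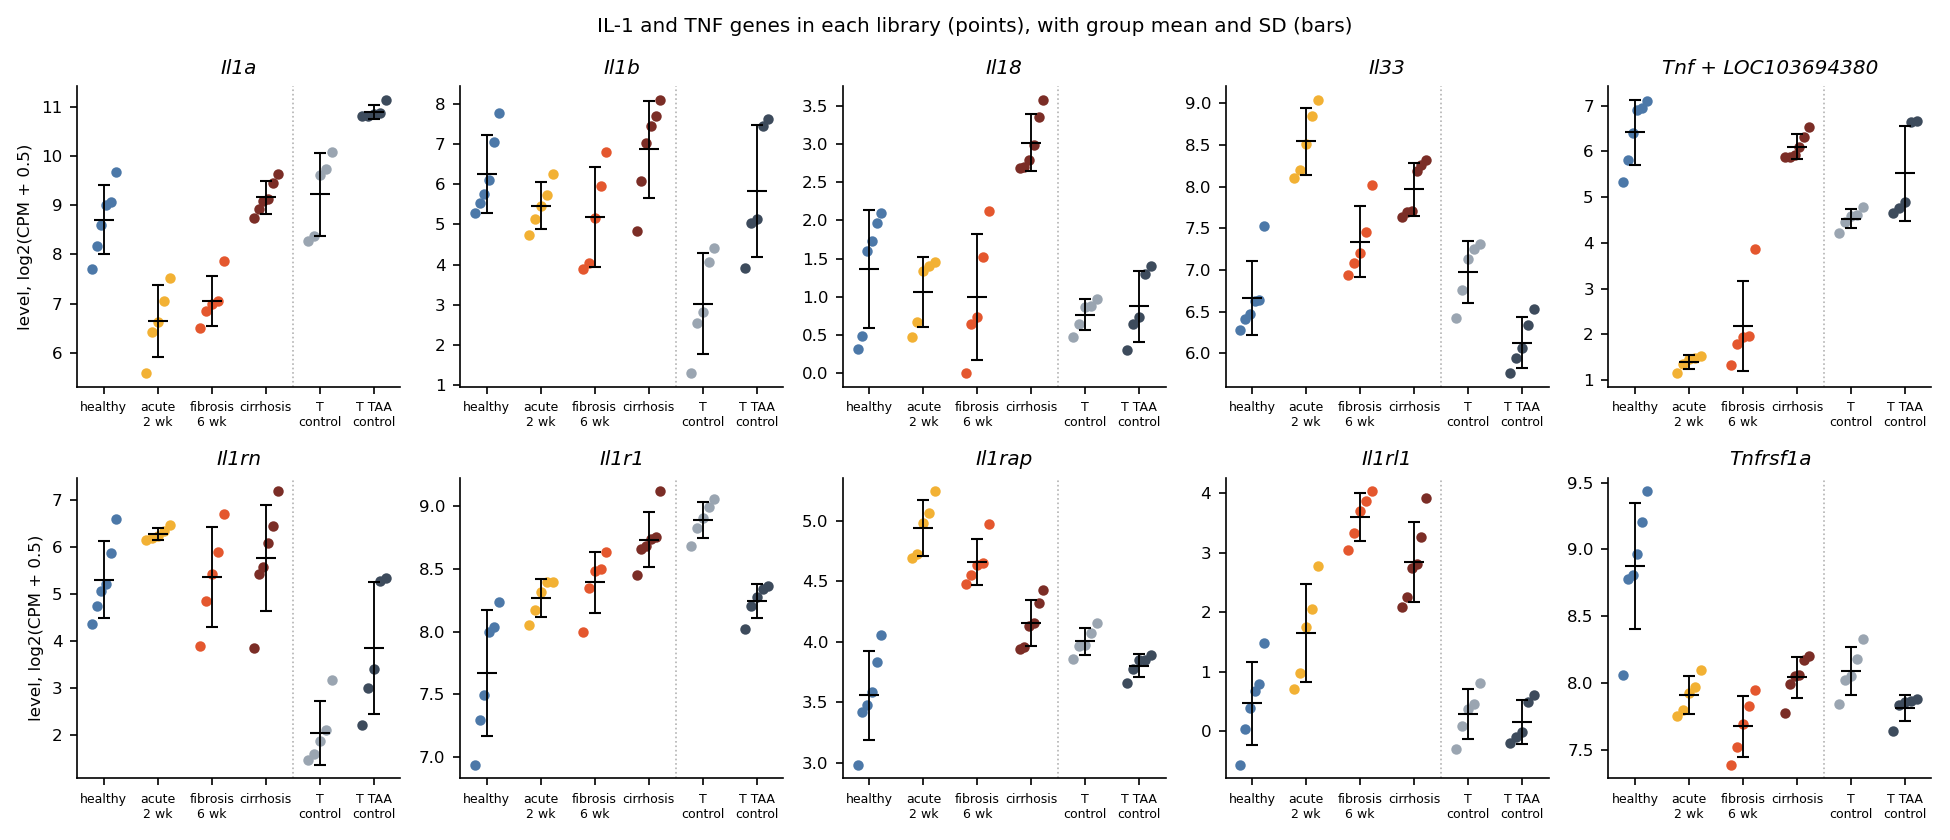
Level of each gene, as log2(CPM + 0.5), in the 22 libraries of the CCl4 model and, right of the dotted line, the 10 libraries of the TAA experiment. Points are libraries in order of value within a group, and bars are the group mean and SD. Tnf is shown summed with LOC103694380, and T control and T TAA control stand for the groups labelled control and TAA control. The sum was between 1.73 and 2.40 CPM in the 5 libraries of acute injury and between 39.7 and 137 CPM in healthy libraries, while Il33 rose after acute injury and Il18 in cirrhosis.

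Il1a encodes IL-1 alpha, which is stored in cells and released on damage. Healthy libraries ran from 209 to 819.7 CPM (median 450.2). The 5 libraries of acute injury had 85.9, 47.7, 97.8, 132 and 184 CPM, all of them under the lowest healthy library. In fibrosis the levels were 90.6, 128, 232, 132 and 115 CPM, and only replicate 15 lay inside the healthy range. Cirrhotic libraries ran from 429.7 to 799 CPM (median 548) and overlapped healthy ones. Il1a was 4.09-fold lower than healthy after acute injury (log2 fold-change -2.03 ± 0.38 SE, adjusted p = 0.000389, limma-voom) and 3.01-fold lower in fibrosis (-1.59 ± 0.34, adjusted p = 0.00103), and it was not called in cirrhosis (0.47 ± 0.28, adjusted p = 0.171). Between stages, cirrhosis was 5.77-fold above acute injury (adjusted p = 6.16e-06) and 4.31-fold above fibrosis (adjusted p = 3.91e-06), without overlap. After acute injury 15 of 15 immediate early genes, 13 of 14 macrophage and 11 of 14 LSEC markers tested were called lower. In fibrosis 14 of 15, 13 of 14 and 12 of 14 were called lower. In cirrhosis against acute injury 14 of 15, 15 of 15 and 12 of 14 were called higher. Of all genes, 37.9%, 34.9% and 37.5% were called in these directions. After acute injury 1 LSEC marker was called higher. The part of these lists in the differences of Il1a was not tested. Without healthy replicate 6, the highest, Il1a was also called in cirrhosis against healthy (log2 fold-change 0.65, adjusted p = 0.0388), as it was with library size in place of trimmed-mean (TMM) factors (0.81, adjusted p = 0.0322).

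Il1b, the secreted IL-1 cytokine that caspase-1 processes, varied widely between the libraries of each group. Its level was 38.2 to 217 CPM in healthy libraries (median 60.7) and 28.3 to 273 CPM in cirrhosis (median 151). Acute injury gave 52.3, 26.1, 34.8, 43.2 and 76.2 CPM, and fibrosis 35.4, 16.1, 111, 61.6 and 14.3 CPM. Both ranges overlapped the healthy one, and neither difference was called (log2 fold-change -0.76 ± 0.44, adjusted p = 0.137, and -1.02 ± 0.59, adjusted p = 0.135). Il1b was higher in cirrhosis than after acute injury (1.42 ± 0.51, adjusted p = 0.0203) and than in fibrosis (1.72 ± 0.65, adjusted p = 0.0290), with overlapping libraries. The first of these calls was lost without acute replicate 2 (adjusted p = 0.0537), and the second without any 1 of fibrosis replicates 13 and 17 and cirrhosis replicates 1, 4 and 5 (adjusted p up to 0.0786). Summed macrophage markers were higher in each cirrhotic library than in any library of acute injury or fibrosis, and their part in the difference was not tested.

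Il18, a caspase-1 substrate like Il1b, was a low-count gene with 17 to 533 expected counts per library. Healthy libraries had 0.737 to 3.80 CPM (median 2.67) and cirrhotic libraries 5.97 to 11.5 CPM (median 6.95), so that each cirrhotic library was above each healthy one. Acute injury gave 2.01, 2.15, 1.08, 2.23 and 0.884 CPM, and fibrosis 3.84, 1.15, 2.36, 1.06 and 0.496 CPM, both inside or near the healthy range. The cirrhotic rise was 3.72-fold (log2 fold-change 1.89 ± 0.38, adjusted p = 0.00127), and Il18 was not called after acute injury (-0.32 ± 0.49, adjusted p = 0.559) or in fibrosis (-0.46 ± 0.59, adjusted p = 0.495). Cirrhosis was also 4.76-fold above acute injury (adjusted p = 1.75e-05) and 5.36-fold above fibrosis (adjusted p = 0.000213). Some reads of Il18 were divided with Tex12, which held at most 26.1% of their sum in any library. The summed macrophage markers of cirrhotic libraries lay inside the healthy range, and none of the 15 was called lower and 1 higher in that comparison, whereas 15 of 15 were higher in cirrhosis than after acute injury (median log2 fold-change 3.79) and than in fibrosis (median 4.49). Of all genes, 37.5% and 34.3% were called higher in these 2 comparisons. Neutrophil (5 of 6 tested) and stellate cell (9 of 12) markers were called higher in cirrhosis than healthy, beside 27.1% of all genes. Summed neutrophil markers were 10.3 to 26.5 CPM in cirrhosis, inside the healthy range of 5.04 to 48.4 CPM. The part of these lists in the differences of Il18 was not tested.

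Il33, a nuclear alarmin, was the cytokine gene that rose at all 3 stages, and most after acute injury. Healthy libraries had 77.3 to 184 CPM (median 93.5), with replicate 6 alone above 100 CPM. After acute injury the libraries had 274, 365, 527, 462 and 294 CPM, all above the healthy range, and the level was 3.78-fold higher (log2 fold-change 1.92 ± 0.25, adjusted p = 1.97e-05). Fibrosis gave 146, 135, 123, 175 and 258 CPM, with 4 of 5 libraries under healthy replicate 6, and a smaller rise (0.74 ± 0.25, adjusted p = 0.0181). Cirrhotic libraries had 198 to 319 CPM (median 251), above every healthy library (1.32 ± 0.21, adjusted p = 0.000313). Il33 was 2.18-fold lower in fibrosis than after acute injury (adjusted p = 0.0104), a comparison in which 11% of all genes and 2 of the 10 were called, and 0.732% of all genes were called lower. Cirrhosis was 1.55-fold above fibrosis (adjusted p = 0.0126), a difference under 1.5-fold without fibrosis replicate 13 or 15 or cirrhosis replicate 2 or 6. In cirrhosis 9 of 12 stellate cell markers and 5 of 6 neutrophil markers tested were called higher than healthy, while the neutrophil sum lay inside the healthy range. After acute injury, where Il33 rose most, 11 of 14 LSEC, 13 of 14 macrophage and 12 of 12 hepatocyte markers tested were called lower. Of the LSEC markers 1 was called higher, and of all genes 37.9% were called lower at that stage. The part of these lists in the rise of Il33 or, below, of Il1rl1 was not tested.

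Tnf encodes the soluble and membrane cytokine TNF, and its reads had been divided between 2 rows of the data, Tnf and LOC103694380. The expected counts of these rows were each not whole in 22 of 32 libraries, but their sum was whole within 0.021 in 32 of 32, and no other gene added to whole numbers with Tnf in every library. The Tnf row held from 0% to 100% of the sum. In acute replicates 4 and 8 it held 0 counts while LOC103694380 held 75 and 73, and in cirrhosis replicate 3 it held 37.12 of 2287 counts. The sum is therefore given first here, a choice made after the values were seen.

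**Figure D2:**
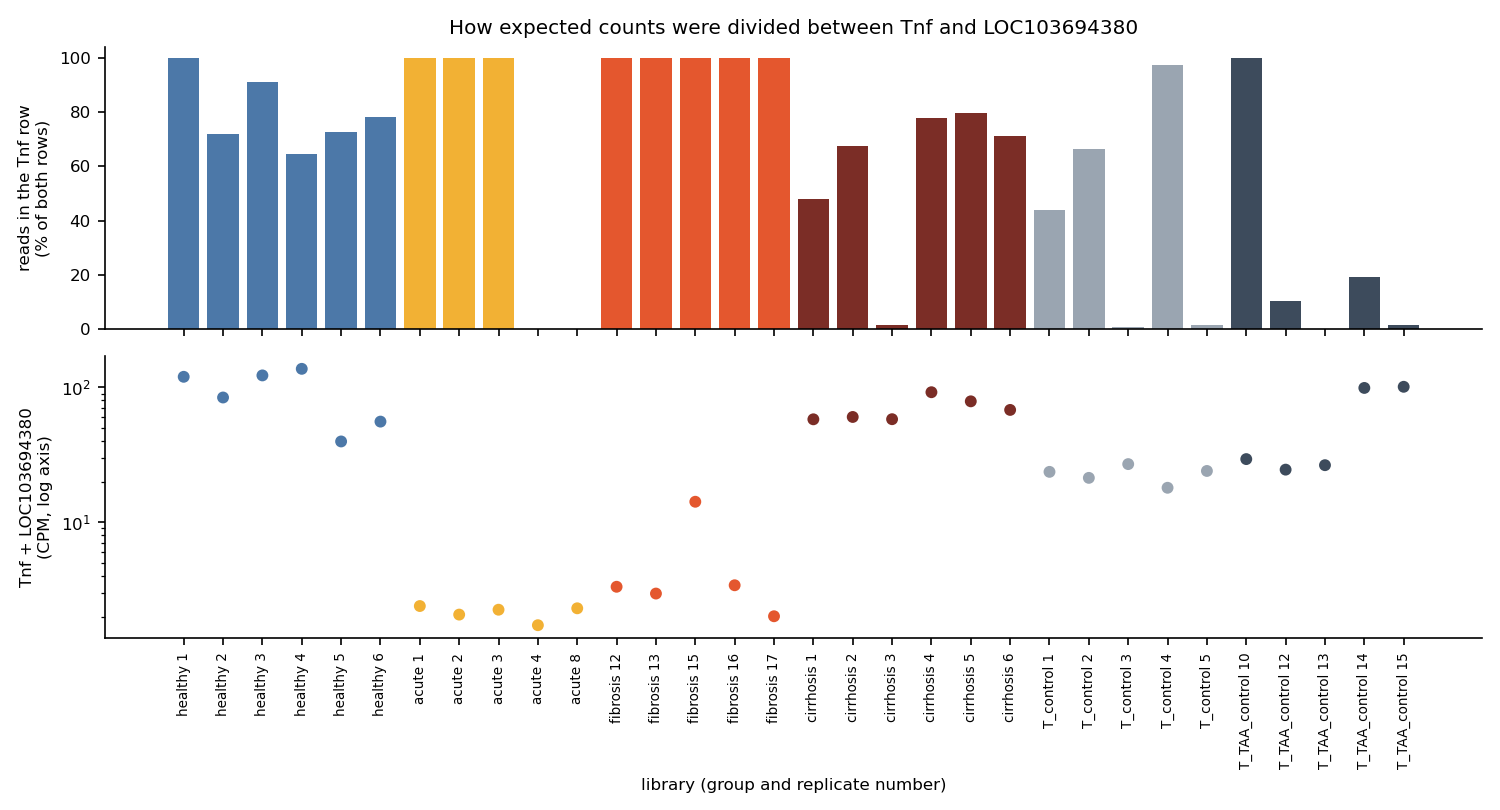
Top, percentage of the reads of Tnf and LOC103694380 that were assigned to the Tnf row in each of the 32 libraries (bars, one library each, coloured by group). T_control and T_TAA_control are the control and TAA control groups of the TAA experiment. Bottom, level of the sum of both rows in CPM on a log axis. The share was 99.9% or 100% in all fibrosis libraries and differed between libraries in every other group, while the sum stayed between 1.73 and 2.40 CPM after acute injury and between 58.0 and 92.0 CPM in cirrhosis.

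Tnf and LOC103694380 together had 39.7 to 137 CPM in healthy libraries (median 102) and 58.0 to 92.0 CPM in cirrhosis (median 64.2). The 5 libraries of acute injury had 2.40, 2.07, 2.25, 1.73 and 2.31 CPM, from 73 to 88 counts each. Fibrosis gave 3.33, 2.96, 14.2, 3.41 and 2.01 CPM, with replicate 15 above the other 4. Neither group overlapped the healthy or cirrhotic libraries. The sum was 38.7-fold lower than healthy after acute injury (log2 fold-change -5.27 ± 0.44, adjusted p = 4.16e-07) and 20.7-fold lower in fibrosis (-4.37 ± 0.50, adjusted p = 8.46e-06), and it was not called in cirrhosis (-0.31 ± 0.30, adjusted p = 0.393). Cirrhosis was above acute injury (log2 fold-change 5.00 ± 0.23, adjusted p = 1.32e-09) and above fibrosis (4.13 ± 0.35, adjusted p = 4.63e-07), and fibrosis was not called against acute injury (0.94 ± 0.46, adjusted p = 0.170).

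The Tnf row alone was also called lower after acute injury (-7.82 ± 1.28, adjusted p = 0.000126) and in fibrosis (-4.02 ± 0.54, adjusted p = 2.91e-05), and not in cirrhosis (-1.41 ± 0.88, adjusted p = 0.184). In cirrhosis against fibrosis the row was not called in limma-voom (2.71 ± 1.46, adjusted p = 0.108), unlike the sum, but was called in edgeR (3.02, adjusted p = 0.00534), in DESeq2 (3.05, adjusted p = 0.000281) and in one fit over the 22 libraries (adjusted p = 0.0372). At the stages where Tnf was low, 13 of 14 macrophage markers tested were called lower after acute injury (median log2 fold-change -3.33) and 13 of 14 in fibrosis (median -4.11), and of the immediate early genes 15 of 15 and 14 of 15 were called lower. Of all genes, 37.9% and 34.9% were called lower at these stages. The part of either list in the fall of Tnf was not tested.

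Il1rn, which encodes the IL-1 receptor antagonist, was higher after acute injury and had very similar levels in the 5 libraries of that group. They were 88.9, 75.6, 80.9, 73.5 and 70.9 CPM, against 19.98 to 97.6 CPM (median 34.8) in healthy libraries, of which replicate 1 was above all 5. The rise was 2.03-fold (log2 fold-change 1.02 ± 0.34, adjusted p = 0.0150 in limma-voom, and 0.0561 in edgeR's quasi-likelihood test). It was also not called in one limma-voom fit over the 22 libraries (0.99 ± 0.51, adjusted p = 0.0786). Fibrosis gave 59.7, 28.4, 105, 42.5 and 14.4 CPM and cirrhosis 13.9 to 146 CPM (median 57.7), both over the whole healthy range, and neither was called (0.11 ± 0.51, adjusted p = 0.851, and 0.47 ± 0.52, adjusted p = 0.451).

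Relative to Il1b, Il1rn stood higher at the 2 early stages. The ratio leaves out Il1a, whose product binds the same receptor. The log2 ratio of Il1rn to Il1b counts was -0.94 ± 0.67 (SD, n = 6) in healthy LSECs, 0.84 ± 0.62 (n = 5) after acute injury, 0.19 ± 0.58 (n = 5) in fibrosis and -1.10 ± 0.30 (n = 6) in cirrhosis. Acute libraries had ratios of 0.76, 1.54, 1.22, 0.77 and -0.10, and only the last of these, replicate 8, lay under the highest healthy library (0.11). By two-sided exact permutation tests, adjusted over the 7 comparisons, the ratio differed from healthy after acute injury by 1.78 (p = 0.00649, adjusted p = 0.0152) and in fibrosis by 1.13 (p = 0.0173, adjusted p = 0.0303), and the difference in cirrhosis was -0.16 (p = 0.615). All 6 cirrhotic libraries, at -1.45 to -0.65, were under all libraries of acute injury and fibrosis (exact permutation p = 0.00216 for each, the smallest that 6 against 5 libraries can give, adjusted p = 0.00758). The fibrosis difference was not past the threshold without fibrosis replicate 12 or 13 (adjusted p up to 0.0667). After acute injury and in fibrosis 13 of 14 macrophage markers tested were called lower, beside 37.9% and 34.9% of all genes. Their part in the ratio was not tested.

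**Figure D3:**
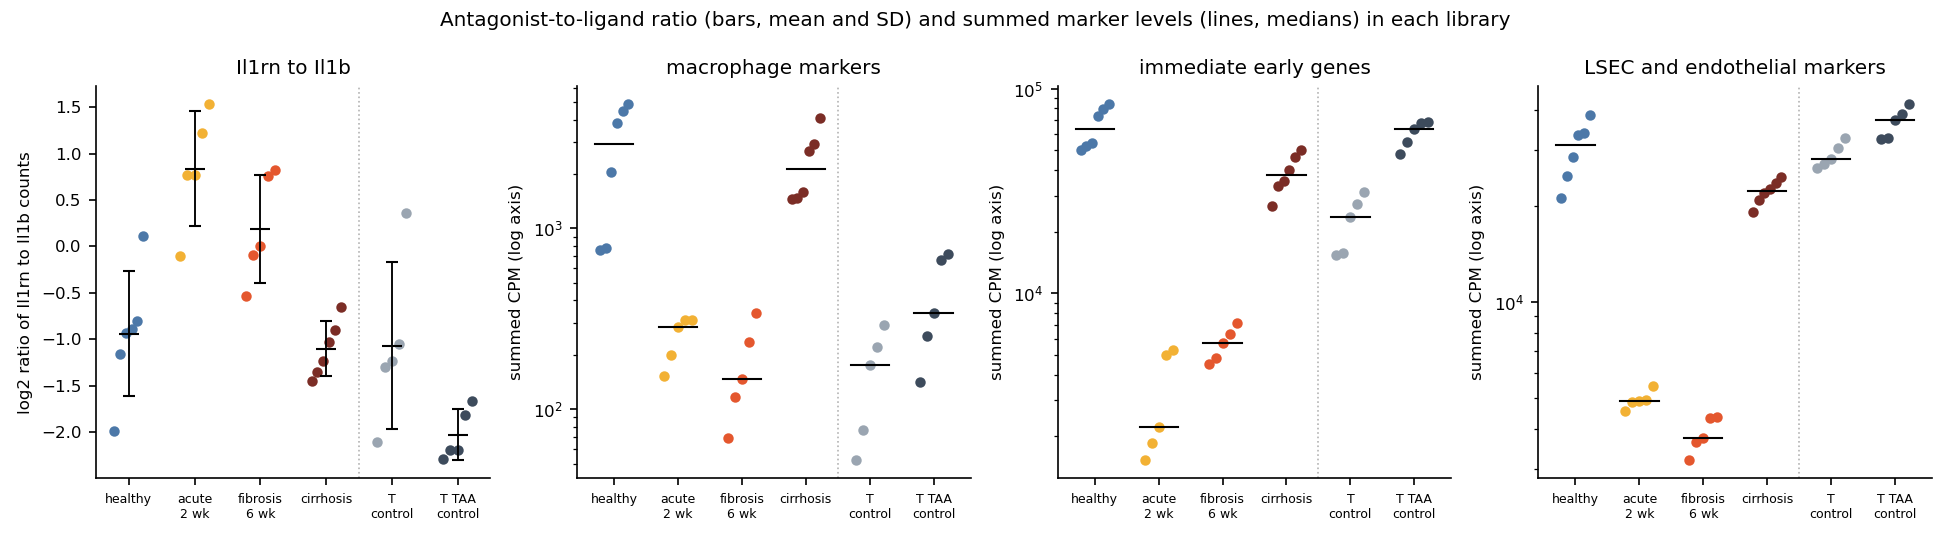
Left, log2 ratio of Il1rn to Il1b counts in each library (points) with group mean and SD (bars). The other panels give the summed CPM of the macrophage, immediate early and LSEC marker lists on log axes, with lines at the group medians, and the 2 groups right of each dotted line are those of the TAA experiment. The ratio was highest after acute injury (mean 0.84). The 3 summed lists were far under their healthy levels both after acute injury and in fibrosis, where the mean ratio was 0.19.

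Il1r1, the signaling receptor of IL-1, rose at each stage. Its level was 122 to 300.1 CPM in healthy libraries (median 218), then 264, 288, 336, 335 and 318 CPM after acute injury and 326, 397, 255, 358 and 361 CPM in fibrosis. Cirrhotic libraries had 348 to 555 CPM (median 419), all above the healthy ones. The log2 fold-change was 0.63 ± 0.22 (adjusted p = 0.0188) after acute injury, 0.79 ± 0.23 (adjusted p = 0.00708) in fibrosis and 1.08 ± 0.21 (adjusted p = 0.00106) in cirrhosis. The first of these fell under the 1.5-fold threshold in edgeR, with upper-quartile factors and without healthy replicate 2 (log2 fold-change 0.48). No difference of Il1r1 between CCl4 stages was called in limma-voom. Fibrosis against acute injury gave 0.21 ± 0.12 (adjusted p = 0.233). Cirrhosis gave 0.47 ± 0.11 against acute injury (adjusted p = 0.00210) and 0.34 ± 0.13 against fibrosis (adjusted p = 0.0323), both under 1.5-fold. With upper-quartile factors cirrhosis against acute injury was called (0.66).

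Il1rap, the accessory chain that the IL-1 and IL-33 receptors share, was higher than in healthy LSECs at all 3 stages, with the largest rise after acute injury. Healthy libraries had 7.42 to 16.1 CPM (median 11.0), and acute libraries 25.9, 32.9, 31.1, 37.4 and 25.3 CPM. Fibrosis gave 23.0, 24.3, 30.9, 24.6 and 21.8 CPM, and cirrhosis 14.9 to 21.0 CPM (median 17.2). The libraries of acute injury and fibrosis were all above the healthy and cirrhotic ones. Il1rap was 2.73-fold higher after acute injury (1.45 ± 0.20, adjusted p = 3.32e-05), 2.28-fold higher in fibrosis (1.19 ± 0.19, adjusted p = 0.000132) and 1.54-fold higher in cirrhosis (0.62 ± 0.18, adjusted p = 0.00949), the last close to the threshold and lost without healthy replicate 2 or cirrhosis replicate 4 or 5. Cirrhosis was 1.74-fold under acute injury (adjusted p = 7.63e-05), while the steps from acute injury to fibrosis (log2 fold-change -0.22 ± 0.13, adjusted p = 0.242) and from fibrosis to cirrhosis (-0.51 ± 0.12, adjusted p = 0.00146, under 1.5-fold) were not called.

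Il1rl1, which encodes the IL-33 receptor ST2, had the largest rise of the 10 genes. Healthy libraries held 0.179 to 2.29 CPM (median 0.960), from 5 to 67 counts. Acute injury gave 2.86, 1.47, 1.14, 6.33 and 3.66 CPM, with 2 libraries inside the healthy range, whereas fibrosis gave 12.5, 14.2, 9.54, 15.9 and 7.79 CPM and cirrhosis 3.75 to 14.7 CPM (median 6.37), all above it. The rise was 3.24-fold after acute injury (log2 fold-change 1.69 ± 0.62, adjusted p = 0.0237), 14.8-fold in fibrosis (3.88 ± 0.47, adjusted p = 1.22e-05) and 8.13-fold in cirrhosis (3.02 ± 0.54, adjusted p = 0.000603). Fibrosis was 4.69-fold above acute injury without overlap (adjusted p = 0.00680). In that comparison 7 of 10 stellate cell, 11 of 12 hepatocyte and 3 of 4 cholangiocyte markers tested were called higher. Of all genes, 10.2% were called higher. Of 14 macrophage markers tested, 0 were called higher and 2 lower, and 0 of 14 LSEC markers were called. The part of these lists in the difference of Il1rl1 between fibrosis and acute injury was not tested. Cirrhosis was 1.75-fold under fibrosis (adjusted p = 0.0373), a call that edgeR (adjusted p = 0.0745) and DESeq2 (adjusted p = 0.0602) did not make. The acute rise was not called without acute replicate 4 (adjusted p = 0.0572). Il33 and its receptor gene moved in opposite directions from 2 to 6 weeks, Il33 down and Il1rl1 up.

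Tnfrsf1a, the death-domain TNF receptor that most cells carry, was lower at all 3 stages. Healthy libraries had 266 to 692 CPM (median 473), with replicate 6 lowest. Acute injury gave 274, 251, 215, 222 and 243 CPM, fibrosis 183, 167, 207, 227 and 246 CPM, and cirrhosis 218 to 294 CPM (median 266). The other 5 healthy libraries were above every library of the 3 CCl4 groups. The log2 fold-change was -0.93 ± 0.21 (adjusted p = 0.00139), -1.13 ± 0.22 (adjusted p = 0.000503) and -0.83 ± 0.21 (adjusted p = 0.00473). With library size in place of TMM factors the falls after acute injury and in cirrhosis were under 1.5-fold (-0.52 and -0.48).

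**Figure D4:**
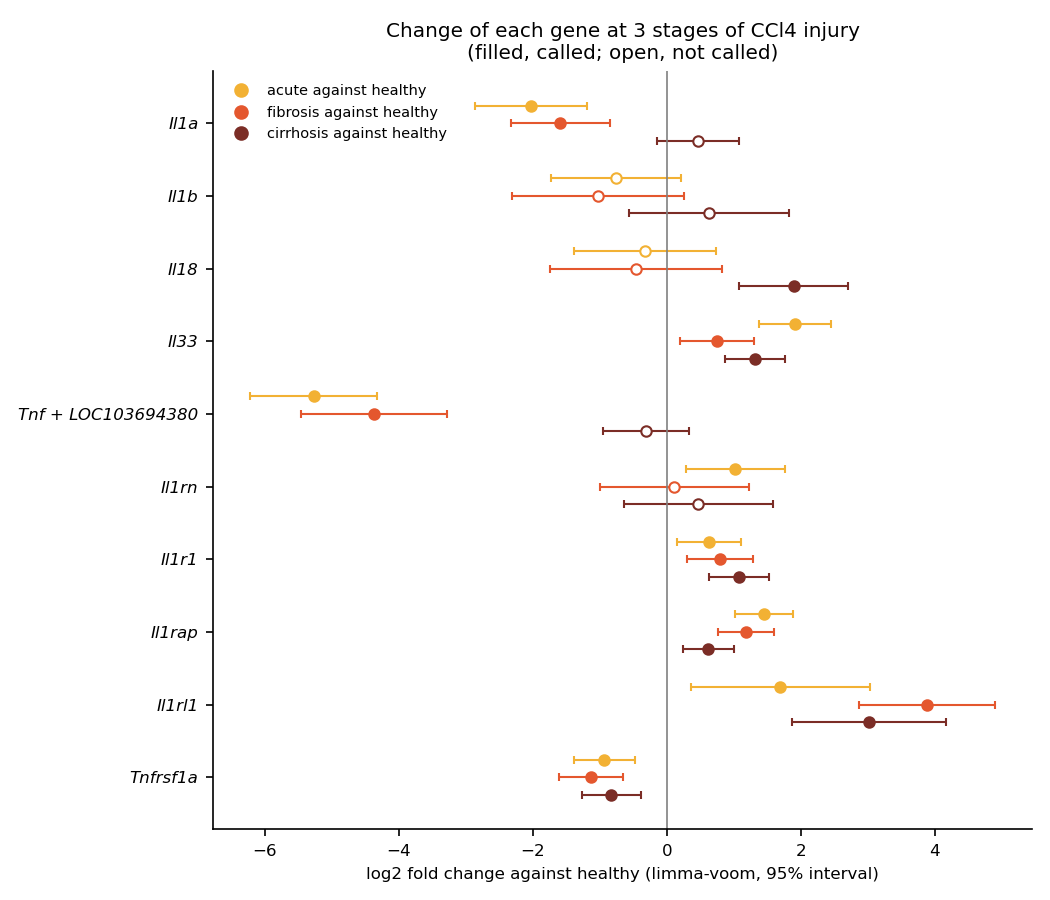
Log2 fold-change of each gene against healthy LSECs at 3 stages of CCl4 injury, with 95% intervals from limma-voom. Filled points were called and open points were not. Il33, Il1r1, Il1rap and Il1rl1 were higher and Tnfrsf1a lower at all 3 stages, while Il1a and Tnf with LOC103694380 were lower only at the first 2.

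Direct comparisons between stages separated fibrosis little from acute injury. Of the 10 genes, Il1rl1 was higher and Il33 lower in fibrosis, beside 11% of all genes called, 10.2% higher and 0.732% lower. In cirrhosis against acute injury 6 were called (Il1a, Il1b, Il18, Il1rl1 and the Tnf row higher, Il1rap lower) beside 69.3% of all genes (37.5% higher, 31.8% lower), and in cirrhosis against fibrosis 5 (Il1a, Il1b, Il18 and Il33 higher, Il1rl1 lower) beside 63.8% (34.3% higher, 29.5% lower). Without overlap between libraries were 2 of the 10 genes in fibrosis against acute injury (17.2% of all genes), 4 in cirrhosis against acute injury (65.9%) and 3 in cirrhosis against fibrosis (63.3%). The Tnf row and Il1rl1 calls of cirrhosis against acute injury rested on single libraries: leaving out any of the 5 acute libraries or cirrhosis replicate 1 or 2 ended the first (adjusted p up to 0.0885), and leaving out acute replicate 2 or 3 the second (adjusted p up to 0.0587). These counts use the Tnf row. Summed with LOC103694380, Tnf was higher in cirrhosis than after acute injury (adjusted p = 1.32e-09, limma-voom) and than in fibrosis (adjusted p = 4.63e-07), both without overlap. With the sum in place of the row, 6 genes were called in each of these 2 comparisons.

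Other genes of the pathway were described from 5 lists, with log2 fold-changes and adjusted p-values from limma-voom against healthy LSECs. Of all genes, 35.5% were called higher and 37.9% lower after acute injury, 35.3% and 34.9% in fibrosis, and 27.1% and 24.7% in cirrhosis. The counts of each list below stand beside these shares and were not tested as sets. Of 6 further IL-1 family ligands, receptors and decoys tested after acute injury, 1 was called higher and 3 lower (median log2 fold-change -1.38). Sigirr, a negative regulator of IL-1 receptors, fell by 5.63 on the log2 scale after acute injury (adjusted p = 2.02e-08), fell by 4.05 in fibrosis (adjusted p = 6.27e-08) and fell by 1.14 in cirrhosis (adjusted p = 0.000355). Il18bp, the soluble decoy that binds IL-18, fell by 3.42 in fibrosis (adjusted p = 4.30e-06) and fell by 1.07 in cirrhosis (adjusted p = 0.00409), with a log2 fold-change of -3.50 after acute injury (adjusted p = 1.89e-06). The IL-36 receptor gene Il1rl2 rose by 2.33 after acute injury (adjusted p = 0.000104) and 3.87 in fibrosis (adjusted p = 1.10e-06), and the IL-18 receptor gene Il18r1 rose by 3.25 in fibrosis (adjusted p = 0.00781) and 2.49 in cirrhosis (adjusted p = 0.0115). In fibrosis 3 of 6 tested were higher and 3 lower (median 0.48), and in cirrhosis 3 of 7 were higher and 2 lower (median 0.77).

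IL-1 processing and inflammasome genes moved in both directions. Of 10 tested after acute injury, 3 were higher and 5 lower (median -0.37), of 11 in fibrosis 4 were higher and 5 lower (median 0.45), and of 11 in cirrhosis 5 were higher and 2 lower (median 0.77). The inflammatory caspase gene Casp4 rose at all stages, by 1.76 (adjusted p = 0.000907), 2.02 (adjusted p = 0.000371) and 1.76 (adjusted p = 0.00180). Nlrc4, a sensor of bacterial proteins, rose by 2.64 after acute injury (adjusted p = 1.13e-05) and 2.24 in fibrosis (adjusted p = 5.11e-05). Capn1, a calpain gene, fell at all 3 stages (-2.82, adjusted p = 4.31e-06, -3.16, adjusted p = 2.17e-06, and -1.45, adjusted p = 0.00113). The adaptor gene Pycard fell by 2.10 after acute injury (adjusted p = 0.00172), the sensor gene Nlrp3 fell by 2.48 in fibrosis (adjusted p = 0.000233), and the pore-forming Gsdmd fell by 1.26 in cirrhosis (adjusted p = 0.000483).

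Adaptors and kinases downstream of the IL-1 receptor were called higher for 4, 5 and 7 of 14 genes at the 3 stages and lower for 3, 4 and 3 (medians -0.05, 0.36 and 0.48). Myd88, the adaptor of IL-1 and IL-33 receptors, fell by 3.01 after acute injury (adjusted p = 1.05e-07) and fell by 2.95 in fibrosis (adjusted p = 1.50e-07). Tab3, whose product links ubiquitin chains to the kinase TAK1, rose by 1.91 (adjusted p = 0.000621), 2.02 (adjusted p = 0.000356) and 1.17 (adjusted p = 0.0147). Map3k7, which encodes TAK1, was listed lower after acute injury and in fibrosis (-7.47 and -7.17), but its expected counts were not whole in 27 of 32 libraries and reached 0, so these values are uncertain.

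Among other TNF ligands, receptors and adaptors, 3 of 20 tested were higher and 11 lower after acute injury (median -0.77), 4 higher and 11 lower in fibrosis (median -0.91), and 5 higher and 6 lower in cirrhosis (median -0.13). Tnfsf10, the TRAIL ligand gene, fell by 6.34 after acute injury (adjusted p = 2.70e-08) and fell by 6.01 in fibrosis (adjusted p = 1.12e-07). Tnfrsf1b, the second TNF receptor gene, fell by 2.91 in fibrosis (adjusted p = 0.000472). Cflar, which encodes the caspase-8 inhibitor c-FLIP, rose at all 3 stages, by 1.34 (adjusted p = 0.00126), 1.04 (adjusted p = 0.00544) and 1.22 (adjusted p = 0.00385). Birc2, Birc3 and Tradd had expected counts that were not whole in 31 or 32 libraries.

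Known endothelial targets of IL-1 and TNF did not move as one group. Of 18 tested, 9 were higher and 7 lower after acute injury (median 0.89), 9 higher and 5 lower in fibrosis (median 1.41), and 8 higher and 1 lower in cirrhosis (median 0.73). The adhesion molecule gene Icam1 fell by 4.83 after acute injury (adjusted p = 4.67e-08), fell by 4.54 in fibrosis (adjusted p = 2.73e-08) and fell by 1.20 in cirrhosis (adjusted p = 0.00233), and Vcam1 fell by 3.82 after acute injury (adjusted p = 0.000160). The growth factor gene Csf3 and the chemokine gene Ccl2 rose by 4.08 (adjusted p = 5.16e-07) and 3.82 (adjusted p = 1.68e-05) after acute injury. In fibrosis the tissue factor gene F3 rose by 4.54 (adjusted p = 4.07e-07) and Csf2 by 4.27 (adjusted p = 2.08e-07), and in cirrhosis Il6 rose by 4.17 (adjusted p = 2.43e-05) and the selectin gene Sele by 2.74 (adjusted p = 0.000119).

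**Figure D5:**
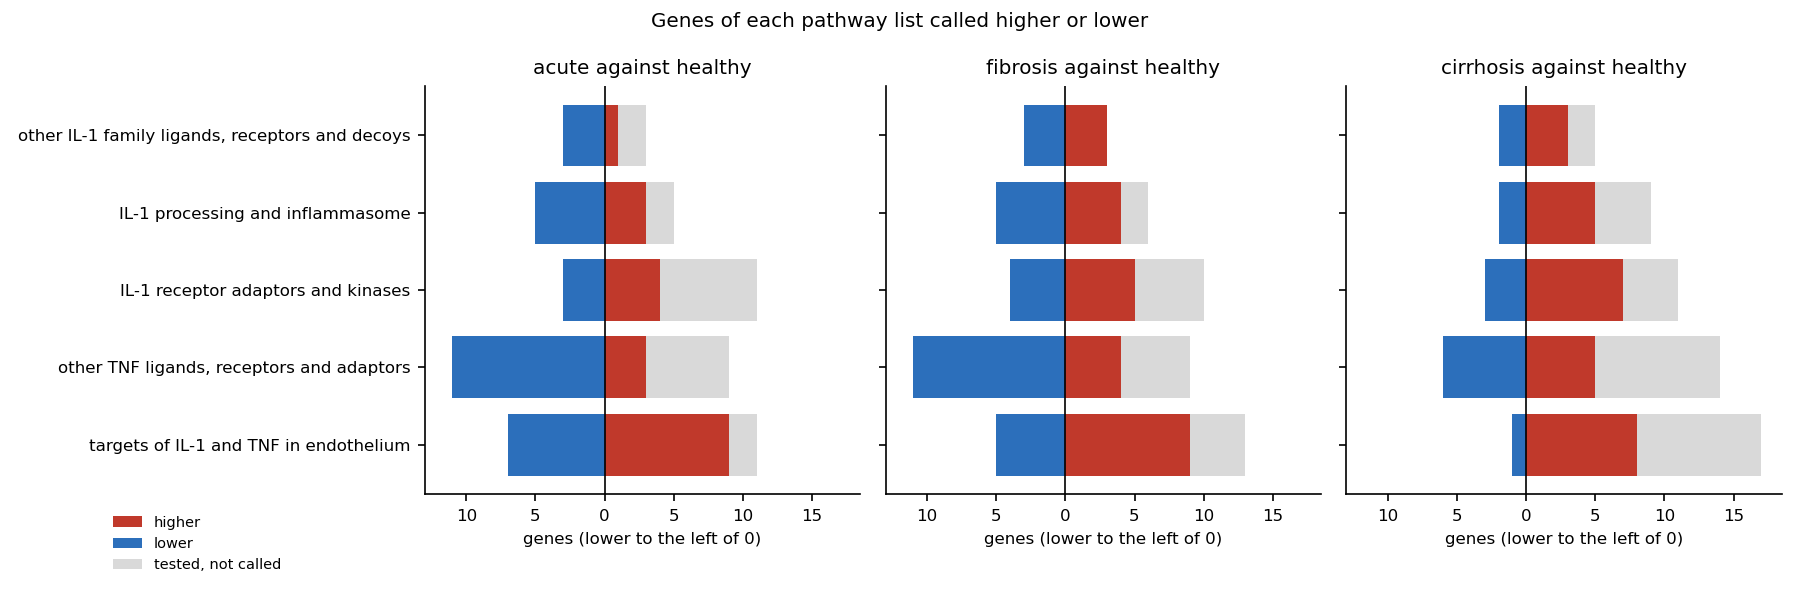
Number of genes in each of 5 pathway lists that were called higher (red, right of 0), lower (blue, left of 0) or tested and not called (grey) against healthy LSECs. After acute injury 11 of 20 TNF ligands, receptors and adaptors were lower, and 9 of 18 target genes were higher. Of all genes, 37.9% were called lower and 35.5% higher at that stage.

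In the TAA experiment 4 of the 10 genes differed between the group labelled TAA control and the group labelled control, beside 27.6% of all 14376 genes tested. Il1a and Il1b were higher and Il1r1 and Il33 lower in the TAA control group. Control libraries had 852, 1086, 784, 332 and 309 CPM of Il1a, and TAA control libraries 1849, 2259, 1868, 1784 and 1806 CPM, without overlap (log2 fold-change 1.67 ± 0.34, adjusted p = 0.00228). Il1r1 had 479, 453, 409.9, 507 and 530.3 CPM in the control group and 294, 309.8, 259.8, 328 and 324 CPM in the TAA control group, again without overlap (-0.65 ± 0.09, adjusted p = 0.000260). Il33 was lower, with overlapping libraries (-0.85 ± 0.19, adjusted p = 0.00384), at 85.5 to 158 CPM in the control group and 53.8 to 91.9 CPM in the TAA control group. Of all genes, 12.7% were called higher and 14.9% lower, and 35.4% had no overlap between libraries.

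Il1b had 5.32, 16.4, 20.9, 1.97 and 6.56 CPM in control libraries and 34.3, 32.2, 14.5, 175 and 196 CPM in TAA control libraries. The last 2 of these, replicates 14 and 15, stood far above the other 3, as they did for Il1rn (38.4 and 40.1 CPM against 4.11 to 10.2) and for Tnf with LOC103694380 (99.0 and 101 CPM against 24.6 to 29.4). Il1b was called higher (log2 fold-change 2.90 ± 0.93, adjusted p = 0.0242), and the estimate was 1.77 ± 0.61 (adjusted p = 0.0427) without these 2 libraries. Their counts differed by a chi-square of 3.05 per gene, against 25.2 or more for every other pair of libraries within a group. Whether they came from separate rats cannot be told from these values. They were kept as 2 libraries, and all 4 calls also held with either of them left out. The call for Il1b was not made without control replicate 4 or 5 (adjusted p up to 0.0537). Il1rn (1.88 ± 0.79, adjusted p = 0.0698) and the Tnf sum (0.99 ± 0.43, adjusted p = 0.0760) were not called in limma-voom, although edgeR (2.31, adjusted p = 0.0129) and DESeq2 (2.30, adjusted p = 0.00273) called Il1rn higher. In limma-voom without replicates 14 and 15 the differences were 0.94 and 0.25.

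Marker lists also differed in the TAA experiment. Summed macrophage markers were 52.0 to 290.3 CPM in the control group and 141 to 721 CPM in the TAA control group, where replicates 14 and 15 were the 2 highest, and immediate early genes were 15378 to 31151 and 47806 to 68467 CPM. Stellate cell and hepatocyte markers were each called lower for 9 of 12 in the TAA control group, beside 14.9% of all genes. The part of these lists in the differences of Il1a, Il1b, Il1r1 and Il33 was not tested. The log2 ratio of Il1rn to Il1b was -1.07 ± 0.89 (SD, n = 5) in the control group and -2.03 ± 0.28 (n = 5) in the TAA control group (difference -0.96, two-sided exact permutation p = 0.0238, adjusted p = 0.0333). It was not past the threshold without replicates 14 and 15 of the TAA control group (difference -0.82, adjusted p = 0.204). Il1rap, Il18, Il1rl1 and Tnfrsf1a were not called.

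Genes with the most similar levels were found by Pearson correlation of log2 CPM over the 22 CCl4 libraries among 8540 candidates. They are given as a description, since these libraries share groups and differ in depth and in the levels of cell type markers. Il1a was most like Ank3 (r = 0.964) and Negr1 (r = 0.960), and Il1b most like Pik3r5 (r = 0.885) and the macrophage chemokine gene Ccl3 (r = 0.873). Il18 was most like Cybb, a phagocyte oxidase subunit gene (r = 0.935), and Dock10 (r = 0.919), and Il1rn most like Lgals3 (r = 0.825) and the integrin gene Itgad (r = 0.783). Within groups, after subtraction of the group means, r was 0.874 for Il1b with Ccl3, 0.875 for Il18 with Cybb and 0.857 for Il1rn with Itgad.

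The receptor genes had other closest genes. Necap2 was among the genes most like Tnfrsf1a (r = 0.967), and Il1rap was most like Tcea1 (r = 0.958) and Supt16h (r = 0.956), and Il1r1 most like Unc13b (r = 0.912) and Abracl (r = 0.911). Il1rl1 was most like Sulf1 (r = 0.915) and Flnc (r = 0.865), of which the second had an r of 0.127 once group means were subtracted. Il33 was most like Uqcrc2 (r = 0.851) and Kif16b (r = 0.847). The Tnf row was most like Rtp3 (r = 0.899) and Card19 (r = 0.881), and the sum with LOC103694380 most like Rtp3 (r = 0.982) and Bhlhe40 (r = 0.982). After subtraction of the group means, r was 0.636 and 0.556 for Il33, 0.562 for Il1rl1 with Sulf1, and 0.698 and 0.448 for the Tnf row. It was 0.781 and 0.668 for the sum, and 0.723 to 0.887 for the genes named with Tnfrsf1a, Il1rap and Il1r1.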

How the data were processed

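RNA of rat LSECs was sequenced from stranded poly(A) libraries. Per the labels and the study's methods, the authors mapped reads to Rnor_6.0 with STAR and deposited RSEM expected counts for 32623 genes in each of 32 libraries, not normalized and not pooled. The authors' processing notes also name FastQC, Trim Galore and limma. RSEM divides reads that fit several genes, and 10.3% to 12.4% of genes had values that were not whole. Such genes are less certain.

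Counts were rounded. Each comparison held only its 2 groups (limma 3.58.1 voom, TMM factors and filterByExpr from edgeR 4.0.16, R 4.3.3), with a call at a Benjamini-Hochberg adjusted p-value under 0.05 over all genes tested and a fold-change above 1.5. The study's methods use limma-voom with TMM and an unadjusted p-value, which was an alternative. CPM used TMM factors over the 22 CCl4 libraries and, separately, the 10 TAA libraries, so levels are not compared between the experiments, and log2 CPM used a pseudocount of 0.5. The ratio of Il1rn to Il1b was tested by exact permutation. The fit was tested on simulated data. Figures were drawn with Python and matplotlib.

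The genes, pathway lists and marker lists were chosen with earlier results of these data known. Genes named from the pathway lists are the 2 largest rises and falls called in each comparison with healthy, of which the text gives a selection. Values of genes that differ in length are not compared with each other. Replicate numbers come from the titles. Healthy, acute and cirrhotic libraries share numbers, and correlations of the deviations of same-numbered libraries were -0.242 to 0.288. So few libraries cannot tell whether the numbers mark a shared batch, and the numbers were used only in the replicate block. Titles and descriptions of part of the TAA control group give different numbers. Alternatives were other tools (DESeq2 1.42.0 among them), scalings, filters, thresholds, a fit over all groups, a replicate block and each library left out, and, chosen after the data were seen, Tnf summed with LOC103694380 and TAA control replicates 14 and 15 left out. Il37, Gsdme, Pecam1, Itgam and Col1a2, which the lists name, were not analysed here, and gene positions on Rnor_6.0 and protein sequences were not used here. One of the genes most similar in level to Tnfrsf1a is not reported here.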

Additional observations from a re-analysis of the deposited data

Results flagged for a closer look

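Within groups, 6 of 72 sets of libraries had 1 library far from the others by Dixon's test, where chance gives about 1 in 20 (3.6). They were Il1a in TAA control replicate 12 (log2 CPM 11.14, next 10.87), Il33 in healthy replicate 6 (7.53, next 6.64), Tnfrsf1a in TAA control replicate 10 (7.64, next 7.83), the Tnf row in cirrhosis replicate 3 (0.53, next 4.83), and in fibrosis replicate 15 the Tnf row (3.87, next 1.97) and Tnf summed with LOC103694380 (3.88, next 1.97). The low Tnf row of cirrhosis replicate 3 lay beside 2249.88 counts in LOC103694380, and the sum of that library was 58.1 CPM, inside the cirrhotic range. Fibrosis replicate 15 also had the highest summed macrophage markers of its group (341 CPM), and their part in its Tnf level was not tested.

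For 3 genes the estimates against the same healthy libraries had opposite signs at different stages and the difference between the stages was called. No gene was called in both directions against healthy: Il1b was not called at any stage, Il18 only in cirrhosis (higher), and Il1a only after acute injury and in fibrosis (lower). Il1a was 2.53 higher on the log2 scale in cirrhosis than after acute injury and 2.11 higher than in fibrosis. For Il1b these differences were 1.42 and 1.72, and for Il18 they were 2.25 and 2.42.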

How the results depend on the processing

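Of 809 values of single genes under alternatives that kept all libraries or left out TAA control replicates 14 and 15 together, 764 kept direction and call, 14 lost the call, 22 gained it and 9 changed sign. None of the sign changes was in a called value. They were Il18 after acute injury without TMM (0.089), Il1b (0.12 in edgeR, 0.11 in DESeq2) and Il18 (0.17 in both) in fibrosis against acute injury, Il18 in the TAA experiment without replicates 14 and 15 (-0.30), and the Tnf row in the TAA experiment (0.30 in edgeR, 0.28 in DESeq2, 0.99 summed with LOC103694380). Counts of called genes stayed within 1.5 times of the reported ones, except that without a fold threshold 8 were called in cirrhosis against fibrosis. The cause of these changes was not tested.

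Leaving out 1 library at a time changed the sign of Il1rn in fibrosis against healthy (-0.21 to 0.50), Il1b (-0.61 to 0.11) and Il18 (-0.48 to 0.28) in fibrosis against acute injury, and Il18 (-0.069 to 0.31) and Tnf (-1.16 to 1.29) in the TAA experiment. Called genes in cirrhosis against fibrosis ranged from 2 to 5, with 2 without fibrosis replicate 13 and 3 without cirrhosis replicate 1, 2 or 6. The ratio of Il1rn to Il1b ranged from 0.92 to 1.34 in fibrosis against healthy, from -0.37 to 0.051 in cirrhosis against healthy, with a change of sign without healthy replicate 2, and from -1.22 to -0.61 in the TAA experiment, where 5 of 10 such fits missed the threshold and leaving out replicates 14 and 15 together gave -0.82.

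With a replicate block, 8, 6 and 7 genes were called in acute injury against healthy, cirrhosis against healthy and cirrhosis against acute injury. The block added Il1b (-1.41, adjusted p = 0.00156, limma-voom) and removed Il1rl1 (1.26, adjusted p = 0.0787) after acute injury, and added Il33 (-0.77, adjusted p = 0.0133) in cirrhosis against acute injury. Same-numbered libraries are not known to share more than the number, so these values do not mark a weaker or stronger effect. Il18 and Il1rl1 rest on the fewest counts, down to 17 and 5 per library.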
